A study of Gallus gallus with 7 samples.

Results

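A total of 905 regions of the chromatin table were intronic regions of the large chicken chromosomes. They were the regions on chromosomes 1 to 10 that lay inside a gene span of the deposited gene table, overlapped no listed exon of any gene, and lay more than 1 kb from every transcription start site (TSS). They made up 10.9% of the 8323 regions on these chromosomes, and the whole table listed 25469 regions, 13888 of them on placed chromosomes. Among the listed regions, the choice used position alone and no measured value. The way in which the table came to list a region is unknown, and the listing itself may have depended on reads of these libraries. This was not tested. The shares called below, against input and between the factors, therefore describe listed regions only and not introns in general.

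The cells were vagal neural crest cells of wild-type chicken embryos, sorted as fluorescent cells after electroporation of a citrine reporter. At Hamburger and Hamilton stage 18 (HH18), the E2:citrine reporter had been introduced at HH8, and chromatin was measured in 2 libraries of sox10, 2 of tfap2B and 2 of input. For the pull-downs, a transcription factor carrying an Avi tag was electroporated with BirA, the enzyme that biotinylates this tag, and streptavidin beads then captured the chromatin without an antibody. At HH10, the NC2 reporter had been introduced at HH4, and RNA was measured in 1 library. The tagged factors were therefore introduced proteins, and no pull-down without a tagged factor was analysed here. Whether libraries of the same group were made from different embryos or pools is not in the labels. The p-values thus reflect only how far these particular libraries spread, and that spread may be technical.

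The neural crest is a migratory cell population of the vertebrate embryo, and its vagal part forms much of the enteric nervous system and contributes to the heart outflow tract. SOX10, a factor with an HMG-box DNA-binding domain, acts in neural crest cells and in the glia and pigment cells that they form. TFAP2B belongs to the AP-2 family, which acts in the neural crest from its induction on. Many distal enhancers lie in introns, either of the gene that they control or of a neighbour. An input library is sonicated chromatin that was not pulled down, and its reads follow the fragmentation, the copy number and the mappability of the DNA.

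The reads recovered in all regions numbered 1366132 to 3498728 in the pull-downs, and 7989029 and 13921317 in the inputs. The HH10 RNA library held 28777461 counts. The chromatin values were whole reads multiplied by 1 constant per library and are called scaled reads here. In sox10, 1 read was worth 1.20 and 2.34 scaled reads, in tfap2B 0.895 and 2.08, and in input 0.695 and 0.363. The lowest listed value was 1 read, which can stand for 0 or 1. The files do not pair the Ensembl gene IDs with symbols, so the genes around the regions carry no names here, and the neural crest markers and those of other cell types were not looked up. No sequences are printed, as no genome of the build was used here. Coordinates are those of the deposited table on galGal5, and no source used here says if the first base of a sequence is 0 or 1.

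All 905 regions were 500 bp wide and all passed the filter on low reads. They lay in 724 genes, of which 592 held 1 region, 101 held 2, 23 held 3 and the other 8 held 4 to 8. A total of 886 regions lay in 1 gene span and 19 in the overlapping spans of 2 genes. The median distance to the nearest TSS was 19277 bp, with quartiles of 7165 and 49962 bp and a range of 1010 to 285179 bp. For 559 regions (61.8%), the nearest TSS was that of the gene around them. The introns had a median length of 22004 bp and the genes a median span of 91562 bp, counted once per region. The first intron held 307 regions, and 444 lay in genes on the plus strand. The median position was 44.9% of the gene span from its TSS, and the median distance to an exon of the same intron was 3581 bp.

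For the 1 kb limit, the nearest region on each side is given, with no test. They lay on different chromosomes and cannot show a step at the limit. The region nearest to the limit on the inside, on chromosome 1 (80785556 to 80786056), lay 1010 bp from a TSS and had 365 and 386 scaled reads in sox10 against 106 and 181 in tfap2B and 29.9 and 0.363 in input. The nearest on the outside, on chromosome 3 (55895564 to 55896064), lay 991 bp from a TSS and had 99.7 and 131 in sox10 against 90.4 and 81.2 in tfap2B and 93.1 and 249 in input.

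Intronic regions had high sox10 values, lower tfap2B values and the lowest input values. In scaled reads, their sox10 medians were 147 and 168, their tfap2B medians 73.4 and 83.3, and their input medians 25.7 and 6.89. The 4329 regions within 1 kb of a TSS on the same chromosomes, which hold the promoters, had medians of 129 and 129 in sox10 against 185 and 144 in tfap2B and 130 and 245 in input. The intronic median thus lay above that of the TSS regions in both sox10 libraries and below it in the other 4 libraries. Of the reads recovered in all listed regions, intronic regions held 4.69% (95% Wilson interval 4.67 to 4.72%) and 5.28% (5.25 to 5.32%) in the sox10 libraries. They held 2.86% (2.84 to 2.87%) and 3.03% (3.00 to 3.05%) in tfap2B, and 1.63% (1.62 to 1.64%) and 1.69% (1.69 to 1.70%) in input. These intervals cover counting error only, and the ranges of the 3 groups did not overlap.

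**Figure D1:**
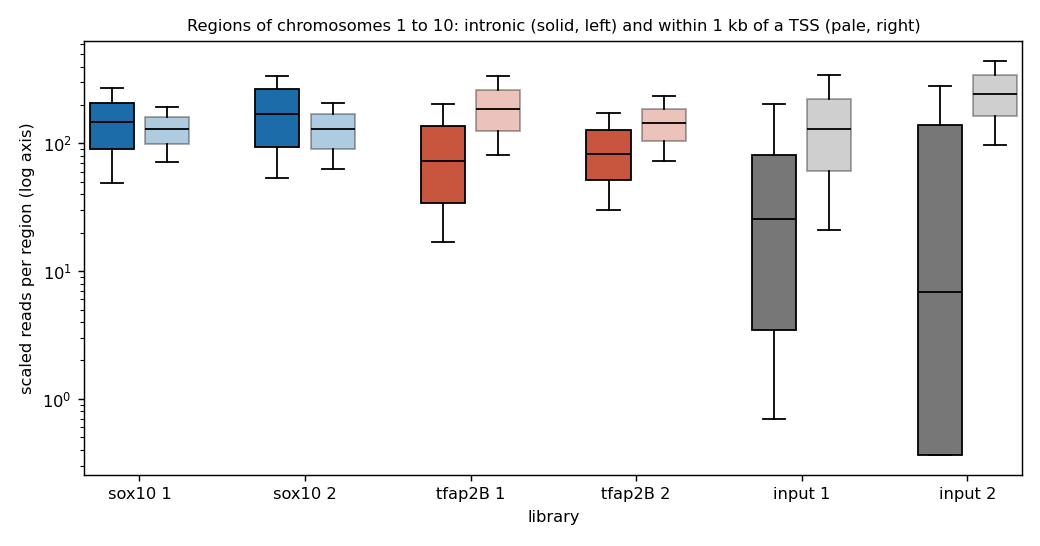
Scaled reads per region (log axis) in each of the 6 HH18 chromatin libraries, for the 905 intronic regions (solid, left box) and the 4329 regions within 1 kb of a TSS (pale, right box) of chromosomes 1 to 10. Boxes give the quartiles, lines the median and whiskers the 10th and 90th percentiles. The intronic median lies at 147 and 168 in sox10 and at 25.7 and 6.89 in input, where the box of input 2 reaches down to 1 read.

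The lowest values belonged to the inputs. In input 1, 201 intronic regions (22.2%) stood at 1 read, and in input 2, 297 did (32.8%). In tfap2B, 12 and 1 stood at 1 read, and in sox10 none did in either library. The shares at 1 read in inputs 1 and 2 were 6.87% and 7.33% of all placed regions. On chromosomes 1 to 10, they were 13.4% and 18.8% of the intergenic regions over 20 kb from a TSS. They were 3.07% and 0.531% of the TSS regions. A total of 144 intronic regions had at most 3 reads in both inputs. The inputs also disagreed with each other: 67 regions had 1 read in input 2 and at least 30 in input 1, and 18 the reverse.

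A value on which the constant per library has little bearing is the median log2(scaled reads + 1) of the intronic regions minus that of the TSS regions. Some dependence remains through the 1 that is added. For sox10 it was 0.19 and 0.39, for tfap2B -1.32 and -0.78, and for input -2.29 and -4.96. The values of the 3 groups did not overlap, and the inputs differed most from each other. The mean of the 4 pull-downs exceeded that of the inputs by 3.24, which gave p = 0.133 in an exact two-sided permutation test over libraries, the smallest p this design allows. Without input replicate 1 the excess was 4.58, and without input replicate 2 it was 1.91. The difference was 3.91 for sox10 against input, 2.58 for tfap2B against input and 1.34 for sox10 against tfap2B. Each of these gave p = 0.333 in the same exact test, again the smallest p that 2 libraries against 2 allow. The difference of tfap2B and input was 3.91 without input replicate 1 and 1.24 without replicate 2, and that of sox10 and input was 5.25 and 2.58. The difference between the factors was added after the data were seen.

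Against input, sox10 was called higher in 457 of the 905 intronic regions (50.5%) and lower in 46 (5.08%), by limma at an adjusted p under 0.05. Among all 25281 regions tested, 18.4% were called higher and 22.3% lower. Of the 11396 tested on unplaced sequence, 23.6% were called higher and 30.2% lower. The balance over all regions turned with the scaling, from 4660 higher and 5632 lower as deposited to 6057 and 2395 with total reads and 4761 and 2658 with DESeq2 size factors. The median log2 difference was 3.35 over the intronic regions (quartiles -0.04 and 5.88) and -0.40 over all regions, and 677 of the 905 lay above 0. The median standard error of an intronic region was 0.87. The distance of the intronic median from that of all regions was 3.73 to 3.83 under the scalings tried, while the median of all regions itself moved from -0.40 to 0.35. That distance moved more under other settings. It was 2.70 with a pseudocount of 10, and 4.26 and 2.51 without input replicates 1 and 2. Without sox10 replicate 1 the count called higher was 214, and without replicate 2 it was 123. The count called lower was 13 and 4 without these libraries, and 112 without input replicate 1.

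The 457 regions called higher combined high sox10 with nearly empty inputs. Their sox10 medians were 203 and 257 scaled reads, with 55.5 and 75.0 for tfap2B and 4.86 and 0.363 for input, so that in input 2 the median region stood at 1 read. In 418 of them, the mean of the sox10 libraries was at or above 124, the median of all placed regions. The call itself asks for sox10 above input, so these values describe the regions called, and the part of the low input in the calls was not tested. The 46 regions called lower had medians of 115 and 118 in sox10 against 124 and 134 in tfap2B and 452 and 479 in input, so their sox10 values were close to the placed median and their input values high.

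The regions with the largest sox10 excess lay in introns of 3.35 to 75.5 kb. The rule for naming took, among the regions called by limma and edgeR, those without overlap between the groups and with at least 10 reads in each library of the higher group, 1 per gene. It led to the region at chromosome 1, 193357019 to 193357519, in intron 1 of 12 of a gene on the minus strand, 1.07 kb from its TSS. It had 469 and 388 scaled reads in sox10 against 119 and 43.7 in tfap2B and 1 read in each input. The log2 difference was 8.14 ± 0.87 (SE, limma adjusted p = 0.0028), and it was 5.37 with a pseudocount of 10 in place of 1. The other 7 named regions also stood at 1 listed read in both inputs, with 305 to 426 scaled reads in the sox10 libraries, so the size of these differences depends on the pseudocount. A region on chromosome 4 (66366149 to 66366649), in intron 3 of 3 of a gene on the plus strand, had 357 and 417 in sox10. A region on chromosome 1 (34287924 to 34288424) lay 80.9 kb from the nearest TSS, in an intron of 75.5 kb, and had 378 and 339 in sox10. The region on chromosome 10 (3662868 to 3663368) lay in intron 1 of a gene with 200.3 CPM (counts scaled to a common library size) at HH10, and had 309 and 426 in sox10. The absence of overlap between sox10 and input in the named regions is a condition of the rule and not a result.

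The regions with the largest sox10 deficit had high input values. The region at chromosome 6, 7123361 to 7123861, in the last of 17 introns, had 49.3 and 37.4 scaled reads in sox10 against 27.7 and 39.6 in tfap2B and 1956 and 369 in input. The log2 difference of sox10 and input was -4.28 ± 0.81 (SE, limma adjusted p = 0.00825). A pair of regions near the start of the listed sequence of chromosome 2 followed. The one at 336347 to 336847 had 99.7 and 119 in sox10 and 4224 and 946 in input, and the one at 399119 to 399619 had 78.1 and 63.2 in sox10 and 2054 and 520 in input. In these 3 regions, input 1 exceeded input 2 by more than the sox10 libraries differed from each other.

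**Figure D2:**
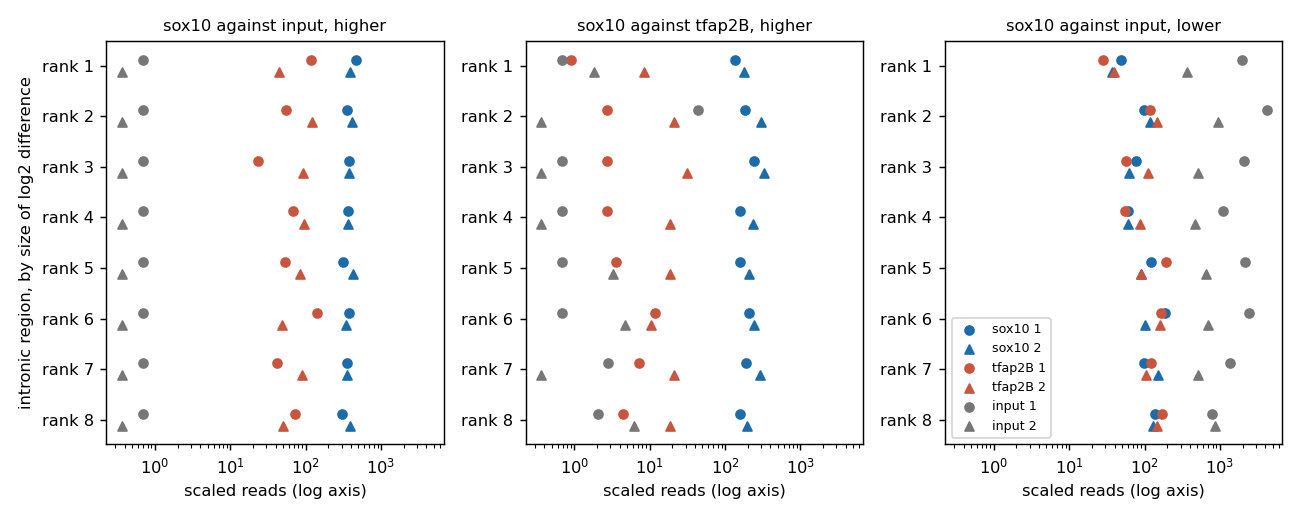
Scaled reads (log axis) in each of the 6 libraries for the 8 named intronic regions per panel, ranked by the size of the log2 difference. In the left panel all inputs stand at 1 read, and in the middle panel tfap2B lies between 0.895 and 31.2. In the right panel every input value lies above the pull-down values of the same region. For sox10 this is a condition of the rule for naming.

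Against input, tfap2B was called higher in 308 intronic regions (34.0%) and lower in 38 (4.2%) by limma, against 10.8% and 17.4% of all regions. Of the regions tested on unplaced sequence, 11.4% were called higher and 26.8% lower. Over all regions this balance turned too, from 2721 higher and 4401 lower as deposited to 4517 and 2084 with total reads. This comparison shares its inputs with the sox10 comparison. The median log2 difference was 2.08 over the intronic regions (quartiles -0.02 and 4.04) and -0.14 over all regions, and 676 of 905 lay above 0. Under the scalings tried, the median of all regions moved from -0.14 to 0.65, and the intronic median lay 2.19 to 2.23 above it. This distance was 1.42 with a pseudocount of 10, and 2.95 and 1.38 without input replicates 1 and 2. The 308 regions had medians of 72.5 and 83.3 scaled reads in tfap2B, 198 and 246 in sox10, and 0.695 and 0.363 in input. The median region thus stood at 1 read in both inputs, and in 60 of the 308 the tfap2B mean was at or above 133, the median of all placed regions. Most of these regions therefore had tfap2B values below the placed median beside low input values, and the part of the input in these calls was not tested. The count called higher was 0 without either tfap2B library, 182 without either sox10 library and 484 without input replicate 1. The count called lower was also 0 without either tfap2B library, 76 without input replicate 1, and 19 and 20 without sox10 replicates 1 and 2.

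Some regions nevertheless had high tfap2B values. The region with the largest difference, at chromosome 5, 38469830 to 38470330, lay in intron 31 of 33 of a gene on the plus strand. It had 278 and 137 scaled reads in tfap2B, 211 and 227 in sox10, and 1 read in each input. Tfap2B exceeded input by 7.02 ± 0.81 on the log2 scale (SE, limma adjusted p = 0.00727). On chromosome 1, the region from 7488852 to 7489352 had 254 and 99.96 in tfap2B and 160 and 222 in sox10. On chromosome 9, the region from 15607583 to 15608083 had 183 and 237 in tfap2B and 168 and 173 in sox10, with 0.695 and 1.81 in input. In these 8 named regions, sox10 minus tfap2B ran from -0.65 to 1.29 on the log2 scale, and none of these differences passed the threshold.

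The highest pull-down values were mixed in kind. The region at chromosome 1, 160285112 to 160285612, had 1090 and 1203 scaled reads in sox10 against 1228 and 966 in tfap2B, but 4799 and 3126 in input, and both factors were called lower than input. The region at chromosome 2, 89553298 to 89553798, in intron 4 of 18, had 405 and 608 in sox10 against 937 and 698 in tfap2B and 95.2 and 108 in input. It was called higher for both factors, with log2 differences of 2.28 ± 0.42 for sox10 (SE, limma adjusted p = 0.00737) and 2.98 ± 0.42 for tfap2B (SE, limma adjusted p = 0.00727). It was the only one of the 5 highest regions called higher for both factors. Also on chromosome 2, the region from 113314088 to 113314588 had 1222 and 962 in sox10 and 28.5 and 57.7 in input, while the tfap2B libraries disagreed with 55.5 and 883. It lay in intron 2 of 36 of a gene with 332 CPM at HH10.

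Between the factors, sox10 was higher than tfap2B in 170 intronic regions (18.8%) and lower in 0, by limma on the 4 pull-down libraries. Among all regions, 2.47% were called higher and 0.103% lower. These include the 11396 regions tested on unplaced sequence, of which 4 (0.0351%) were called higher. A fit of the 13885 placed regions alone called 1123 higher and 144 lower, of which 305 and 5 were intronic. At an unadjusted limma p under 0.05, 422 intronic regions differed in either direction, against 13.8% of all regions. EdgeR called 147 higher and 0 lower, against 2.2% and 0.0831% of all regions. DESeq2 called 252 higher and 4 lower of the 779 to which it gave an adjusted p, against 5.11% and 0.853% of all such regions. The median log2 difference was 0.69 (quartiles -0.10 and 2.01, median SE 0.46) against 0.05 over all regions, and 644 of 905 lay above 0. The 170 regions had medians of 234 and 288 scaled reads in sox10 against 36.7 and 52.1 in tfap2B and 3.47 and 0.363 in input. Their sox10 mean was above the placed median of 124 in 170 of 170. The call itself asks for sox10 above tfap2B, so these values describe the regions called. The inputs do not enter this comparison, and low input values stood beside these calls as well. In a fit with all 6 libraries the count called higher was 0, over all regions as well. The calls changed strongly when 1 library was left out, over all regions too, and such a fit leaves 1 library in a group. The intronic median difference was 0.91 and 0.64 without sox10 replicates 1 and 2, and 0.70 and 0.86 without tfap2B replicates 1 and 2. Over all regions the median was 0.05, 0.08, 0.03 and 0.02 in the same order.

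**Figure D3:**
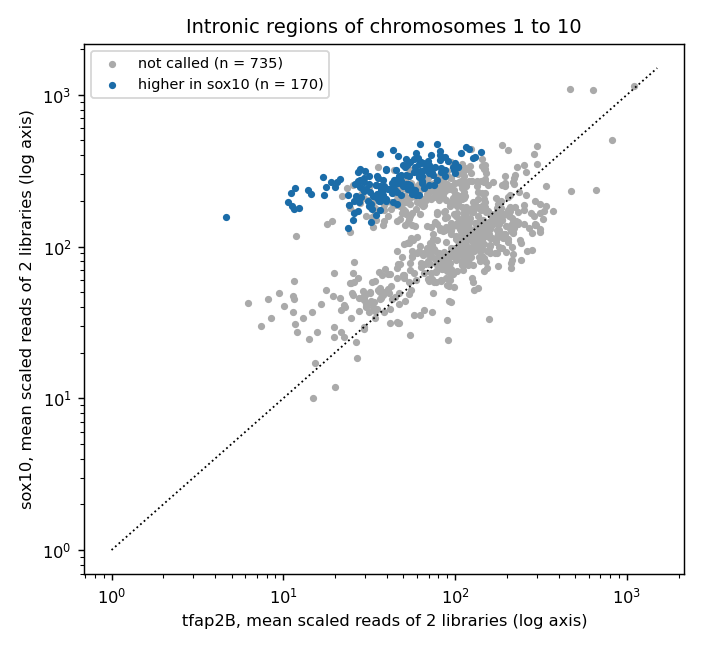
Mean scaled reads of the 2 sox10 libraries against those of the 2 tfap2B libraries (log axes), 1 point per intronic region. The dotted line marks equal values. The 170 regions called higher in sox10 lie above the line at high sox10 values, and 644 of the 905 regions had a log2 difference above 0.

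The widest gap between the factors was at chromosome 4, 5922646 to 5923146, in intron 21 of 27 of a gene on the minus strand with 131 CPM at HH10. Sox10 had 133 and 178 scaled reads there, tfap2B 0.895 and 8.33, and input 0.695 and 1.81. The log2 difference of the factors was 5.20 ± 0.82 (SE, limma adjusted p = 0.0206), and the tfap2B values, 1 and a few reads, were close to those of the input. On chromosome 8, the region from 8645726 to 8646226, in the single intron of a gene that spans 192 kb, had 184 and 300 in sox10 and 2.68 and 20.8 in tfap2B. The region at chromosome 5, 13184109 to 13184609, had 241 and 330 in sox10 and 2.68 and 31.2 in tfap2B. In these regions tfap2B replicate 2 stood above replicate 1. The rule for naming admits no overlap of the factors. The tfap2B libraries were closest at chromosome 7, 32907788 to 32908288, in intron 2 of 15, with 11.6 and 10.4 in tfap2B and 210 and 239 in sox10. There the log2 difference was 4.23 ± 0.51 (SE, limma adjusted p = 0.0202). In these 8 named regions, no difference between tfap2B and input passed the threshold by limma, while limma called sox10 above input in each. By edgeR, tfap2B against input passed in the region at chromosome 5, 13184109 to 13184609 (edgeR adjusted p = 0.0448). Sox10 against input did not pass by edgeR at chromosome 8, 8645726 to 8646226 (edgeR adjusted p = 0.174).

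Calls varied with the distance to the nearest TSS. Of the 167 regions at 1 to 5 kb, 47 (28.1%) were higher in sox10 than in input and 14 (8.38%) higher in sox10 than in tfap2B. At 5 to 20 kb, 153 of 296 (51.7%) and 61 (20.6%) were. At 20 to 50 kb, 144 of 216 (66.7%) and 51 (23.6%) were. Beyond 50 kb, 113 of 226 and 44 (19.5%) were. The shares thus were lowest next to the TSS and highest at 20 to 50 kb. For tfap2B against input, the counts were 30, 104, 99 and 75 in the same order. The input medians moved with distance too, from 71.6 and 161 scaled reads at 1 to 5 kb to 12.9 and 2.54 at 20 to 50 kb. The sox10 medians moved from 131 and 133 to 165 and 200 and the tfap2B medians from 120 and 112 to 66.7 and 79.1 between these bins. These are counts over regions with no test, and the part of the input in them was not tested.

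The difference between the factors also varied with the input reads, which are not part of it. Where input 2 held 1 read, 107 of 297 regions were called higher in sox10 than in tfap2B, with a median log2 difference of 2.03. At 2 to 3 reads, 13 of 28 were, with a median of 2.18, so the order did not hold between these bins. At 4 to 30 reads, 45 of 174 were, with a median of 1.37. At 31 to 300 reads, 5 of 152 were, with a median of 0.29, and above 300 reads 0 of 254 were, with a median of -0.17. The median tfap2B values were 48.3 and 72.9 scaled reads in the first of these bins and 139 and 119 in the last, and the sox10 medians were 197 and 253 in the first and 114 and 116 in the last. In the same bins of input 1, the counts called were 80 of 201, 3 of 15, 45 of 191, 42 of 413 and 0 of 85. The medians there were 2.05, 1.51, 1.41, 0.27 and -0.05.

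**Figure D4:**
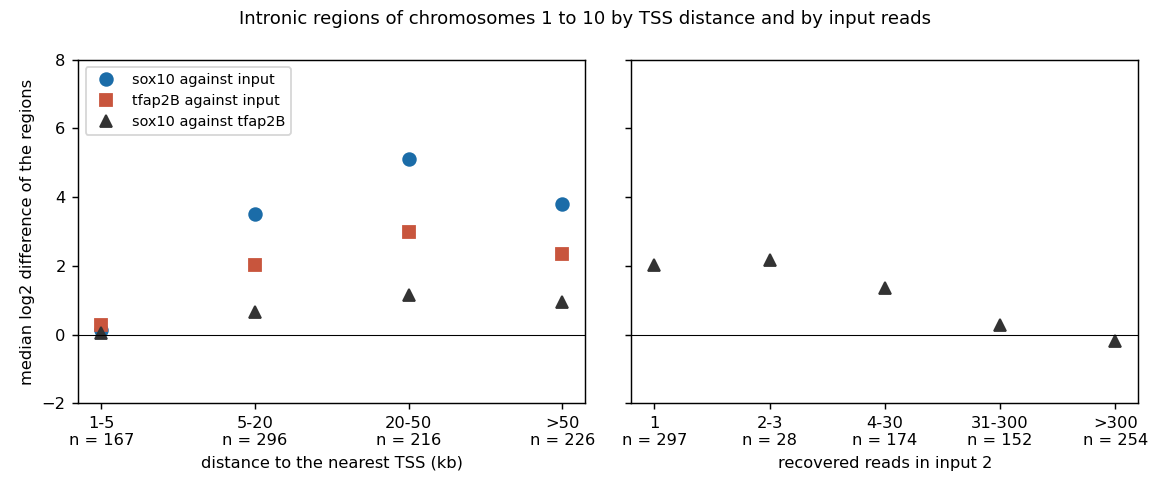
Median log2 difference of the intronic regions, by distance to the nearest TSS in kb (left, 3 comparisons) and by recovered reads in input 2 (right, sox10 against tfap2B). The number of regions stands under each bin. All medians are lowest at 1 to 5 kb and highest at 20 to 50 kb, and the median of sox10 against tfap2B is 2.03 at 1 input read, 2.18 at 2 to 3 and -0.17 above 300.

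Shares also differed with the position within the gene. In intron 1, sox10 was called above input in 143 of 307 regions (46.6%), and in introns beyond the fifth in 136 of 243 (56.0%). By distance to an exon, the share was 37.9% within 500 bp, 59.1% at 2 to 10 kb and 45.5% beyond 10 kb. In successive 25% steps of the gene span from the TSS, it was 47.7%, 53.0%, 48.2% and 53.2%, with no steady order. By chromosome, it ran from 42.9% on chromosome 10 to 59.6% on chromosome 7, where 21 of 49 and 28 of 47 regions were called. The input medians moved too, from 35.4 and 13.1 scaled reads in intron 1 to 23.6 and 4.35 beyond the fifth. They were 57.7 and 74.6 within 500 bp of an exon, 18.8 and 3.99 at 2 to 10 kb and 27.1 and 7.80 beyond 10 kb. These are shares over regions with no test, and the part of the input in them was not tested.

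Among the classes of region, the intronic regions had the largest shares called higher in all 3 comparisons. For sox10 against input, 32.2% of the 1331 intergenic regions over 20 kb from a TSS were called higher. The share was 20.3% of the 1379 intergenic regions at 1 to 20 kb, 13.5% of the 379 exonic regions and 3.03% of the 4329 TSS regions. For sox10 against tfap2B, the shares called higher were 10.4%, 6.24%, 3.96% and 0.439% in the same order, against 18.8% of the intronic regions. Low shares of lower calls were not particular to the introns. For sox10 against input, these shares were 5.03%, 11.5%, 29.6% and 13.1% in the same order, against 5.08% of the intronic regions. For tfap2B against input, they were 3.01%, 6.16%, 24.3% and 5.71%, against 4.2%. The 802 intronic regions of the other placed chromosomes, of which 801 passed the filter, lay in between with 30.3% higher and 25.2% lower in sox10 than in input, and 9.36% higher in sox10 than in tfap2B. Their medians were 119 and 108 scaled reads in sox10 against 81.9 and 87.5 in tfap2B and 70.5 and 121 in input. Their input medians were thus above those on chromosomes 1 to 10 and their sox10 medians below. Of these 802 regions, 269 lay on chromosome Z and 72 on chromosome 27, so this is not a contrast of large with small chromosomes. The classes were compared as shares over regions, with no test.

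**Figure D5:**
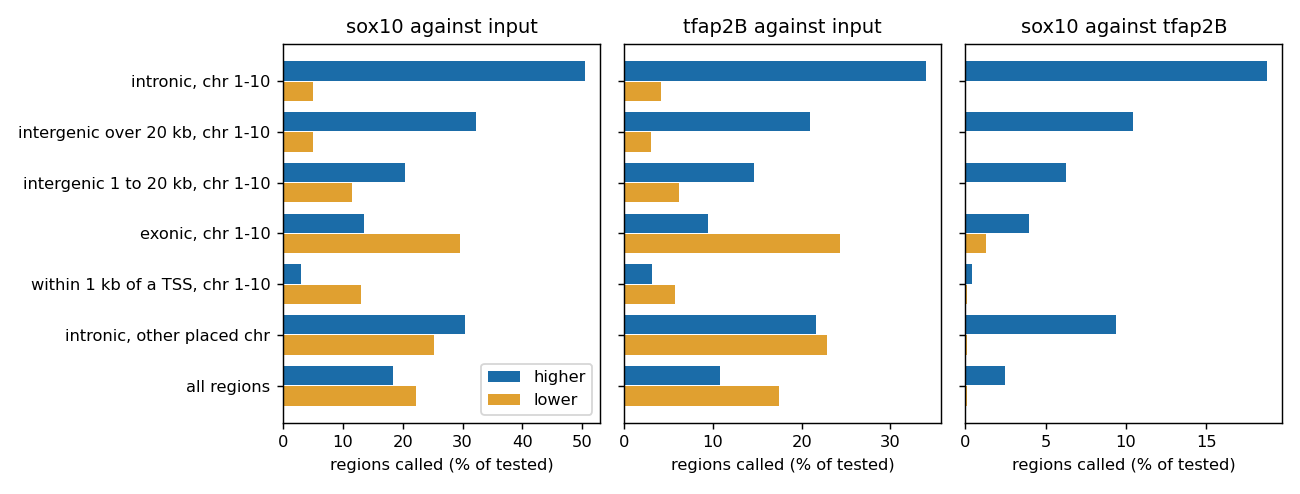
Regions called higher or lower by limma (adjusted p under 0.05), as a percentage of the regions tested in each class, for the 3 comparisons (the axes differ in scale). The intronic regions of chromosomes 1 to 10 have the longest bars for higher calls, 50.5%, 34.0% and 18.8%.

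Regions of 1 gene were called alike in some genes and not in others. Among the 132 genes with at least 2 intronic regions, which held 313 of them, sox10 was called above input in all regions in 39 genes, none in 36 and some in 57. Neighbouring regions of a gene lay a median of 21606 bp apart, and 32 of 181 such pairs were under 5 kb apart. In 5 of the 132 genes, all regions were called higher in sox10 than in tfap2B. Of all 905 intronic regions, 50.5% were called higher in sox10 than in input and 18.8% higher in sox10 than in tfap2B. Whether regions of 1 gene were called alike more or less often than these shares imply was not tested.

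The gene with the most regions called higher in sox10 than in input, all 6 of its 6, was ENSGALG00000009491 (chromosome 5, 28406954 to 28747300, minus strand, 340 kb). Its regions lay in introns 7, 8 and 10 of 10, 80.3 to 174 kb from the nearest TSS. They had 136 to 315 scaled reads in sox10 replicate 1 and 197 to 400 in replicate 2, 53.7 to 186 and 14.6 to 199.9 in tfap2B, and at most 31.3 and 13.1 in input. Tfap2B was called higher than input in 4 of them, and sox10 higher than tfap2B in 1. That region, at 28452654 to 28453154, had 315 and 332 in sox10 against 53.7 and 24.99 in tfap2B and 3.47 and 0.363 in input. The log2 difference of the factors there was 3.11 ± 0.46 (SE, limma adjusted p = 0.0202). The gene had 40.3 CPM at HH10 (95% exact Poisson interval 38.1 to 42.7).

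ENSGALG00000011298 (chromosome 2, 37655934 to 37978166, plus strand, 322 kb) held 4 regions and had 206 CPM at HH10 (95% exact Poisson interval 201 to 212). Sox10 was called higher than input in 3 of them, tfap2B in 2, and sox10 higher than tfap2B in 1. That region, at 37915765 to 37916265, had 238 and 351 scaled reads in sox10 against 60.0 and 43.7 in tfap2B and 18.8 and 0.363 in input, and the log2 difference of the factors was 2.47 ± 0.41 (SE, limma adjusted p = 0.0233). Its neighbour in the same intron, at 37916448 to 37916948, had 56.5 and 42.1 in sox10 against 29.5 and 20.8 in tfap2B and 27.1 and 16.0 in input, and was called in no comparison. These neighbouring 500 bp regions, which did not touch, thus differed several-fold in sox10 values.

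Another 2 genes held 8 regions each, and their values went the other way. ENSGALG00000033000 (chromosome 1, 101034873 to 101074782, minus strand, 39.9 kb) had a single intron, with 7 of 8 regions lower in sox10 than in input and 6 lower in tfap2B. Its inputs had medians of 1459 and 1213 scaled reads over the 8 regions, against 157 and 133 in sox10 and 119 and 168 in tfap2B. The region at 101042718 to 101043218 had 728 and 587 in tfap2B, 278 and 192 in sox10, and 1660 and 1424 in input, and neither difference involving tfap2B passed the threshold. ENSGALG00000012228 (chromosome 5, 56898267 to 57232790, minus strand, 335 kb) had 3 regions lower in sox10 and 4 lower in tfap2B. Its medians were 69.1 and 64.3 in sox10 against 51.0 and 55.2 in tfap2B and 295 and 171 in input. Both genes had 0 counts in the HH10 RNA library, which allows a level of up to 0.104 CPM at 3 counts. In both, every input median exceeded every pull-down median.

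The genes around the intronic regions were expressed at HH10 at levels below those of genes nearest to TSS regions. Levels between these sets of genes are compared per length, as RPKM, reads scaled by gene length and library size, computed from the counts. The 724 genes had a median level of 6.03 RPKM and 18.6 CPM, and 126 (17.4%) had 0 counts. The 4249 genes nearest to a TSS region had a median of 15.2 RPKM, the 6243 genes nearest to any region of these chromosomes 8.92 RPKM, and all 11416 genes of these chromosomes 3.68 RPKM. Genes around a region called higher in sox10 than in input had a median of 6.56 RPKM (400 genes), and those around a region called higher in sox10 than in tfap2B 5.09 RPKM (165 genes). The genes around intronic regions spanned a median of 77.7 kb, against 16.0 kb for the genes nearest to any region. The RNA came from 1 library of an earlier stage than the chromatin, so these levels have no replicate check and no test.

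Regions were also binned by the CPM of the gene, which is not scaled by gene length, with no test. The share called higher in sox10 than in input was 37.3% of the 158 regions in genes with 0 counts. It was 48.5% of the 66 in genes above 0 and up to 1 CPM, and 49.6% of the 129 in genes of 1 to 10 CPM. It was 55.2% of the 397 in genes of 10 to 100 CPM and 53.5% of the 155 above 100 CPM. For sox10 against tfap2B, it was 13.3%, 16.7%, 24.0%, 20.4% and 16.8% in the same order. The sox10 medians were 111 and 125 scaled reads in the regions of genes with 0 counts and 154 and 168 in those above 100 CPM, and the input medians were 35.8 and 9.80 against 24.3 and 6.89.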

How the data were processed

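The intronic regions and every list were chosen with earlier results of these data known. The submitters' processing notes name galGal5 as the build and, without roles or order, Bowtie, DiffBind, DESeq2, featureCounts, Subread 1.4.5 and STAR 2.4.2a. Region calling and scaling are not given in the sources used here. As deposited, chromatin values are a signal, whole reads times 1 constant per library (100% of values whole within 0.01 read). Gene values were deposited as whole-number counts without normalization, by a counting whose strand setting is not stated here. A total of 21 columns of other samples were not used.

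Regions were placed with the gene table's exon coordinates. Where gene spans overlapped, the region was given to the longest gene. Of 24881 gene IDs, 0 matched the reference table, so the planned gene lists, markers, motifs and GC content were left out.

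The test was limma 3.58.1 (R 4.3.3) on log2(scaled reads + 1), with an intensity trend, over all 25281 regions kept by filterByExpr of edgeR 4.0.16, which removed 188, with Benjamini-Hochberg adjusted p under 0.05. The factors were tested against input with all 6 libraries (3 residual degrees of freedom) and against each other with the 4 pull-downs (2 residual degrees of freedom). Adding 1 draws the fold changes of low regions towards 0. As 1 read was worth more scaled reads in the pull-downs than in the inputs, regions with equally few reads can still differ. Alternatives included edgeR and DESeq2 1.42.0 tests on recovered reads, other scalings, pseudocounts and filters, and leaving out each library. Named were, per comparison and direction, up to 8 regions with the largest difference, the 8 genes with the most regions and the 5 regions with the highest pull-down mean. For the factors' comparison, a call by limma was enough.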

Additional observations from a re-analysis of the deposited data

How the results depend on the processing

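Over the intronic regions, no direction reversed under the alternatives run, for the counts, the differences of named regions or the levels relative to TSS regions, which come from a design too small to pass the threshold. Over all regions, the balance of higher and lower calls against input did turn with the scaling. Of the 457 intronic regions higher in sox10 than in input, 281 were called at adjusted p under 0.01, and leaving out 1 library gave 123 to 532. The 46 lower became 16 at 0.01, 26 when only regions over 5 kb from a TSS counted, 17 with total reads, 30 with TMM factors, 22 with DESeq2 size factors, 23 with edgeR, 28 with the DESeq2 test, 26 with 1 variance weight per group, and 4 to 112 leaving out 1 library. For tfap2B against input, the 308 higher became 133 at 0.01, 205 with only the compared groups and 0 to 484 leaving out 1 library. The 38 lower became 9 at 0.01, 20 over 5 kb, 15 with total reads, 25 with TMM, 23 with DESeq2 size factors, 18 with edgeR, 19 with group weights, 23 with only the compared groups and 0 to 76 leaving out 1 library. For sox10 against tfap2B, the 170 higher became 0 at 0.01, 282 with group weights, 305 with placed chromosomes only, 0 with all 6 libraries and 0 to 412 leaving out 1 library. The 0 lower became 1 with a pseudocount of 10, 4 with the DESeq2 test, 1 with group weights, 5 with placed chromosomes only and 0 to 64 leaving out 1 library. Where a library was left out, the lone one was assumed to vary like the others. Of the 40 named calls, 13 were lost at 0.01, 10 and 16 without sox10 replicates 1 and 2, 16 without either tfap2B replicate, and 8 of 8 between the factors with all 6 libraries. The causes were not tested, and input reads near 1 limit the size of the differences.

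Same-numbered libraries share a number, and the labels do not say if they share anything else. Their deviations correlated at 0.05 for sox10 with tfap2B, -0.03 for sox10 with input and -0.27 for tfap2B with input. With a replicate block, 437 intronic regions were higher and 33 lower in sox10 than in input, 254 and 30 in tfap2B than in input, and 310 and 5 in sox10 than in tfap2B. Over all regions, the block gave 3668 higher and 4310 lower, 1982 and 3307, and 1173 and 198 in the same order. A crossed pairing of tfap2B with input, chosen after seeing the data, gave 360 and 40 intronic regions, and 3544 and 4427 over all regions.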

Other observations

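The table held 3.03 intronic regions per Mb of intron on chromosomes 1 to 10 (299 Mb), from 2.38 on chromosome 3 to 5.36 on chromosome 10. On the other placed chromosomes it held 7.06 per Mb (114 Mb), with 8.20 on chromosome Z and 28.9 on chromosome 27. Some of these lay below the large chromosomes or within their range, with 2.50 on chromosome 20, 0.644 on W, and 3.73, 3.67 and 3.92 on chromosomes 22, 26 and 33. On chromosome 27, 72 of 273 regions were intronic. The density depends on how regions were called, and that step was not given in the sources used here.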
